A study of Mus musculus with 31 samples.

Results

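The genes of the mitochondrial respiratory chain and of ATP synthase were followed in mouse lung over 24 h after an injection of oleic acid, a fatty acid used to injure the lung through its circulation. Members were chosen by name, as array probes whose gene name starts with Nduf, Uqcr or Atp5, with Cox4 to Cox8, or is Sdha to Sdhd. This gave 90 of the 36161 gene names on the array, with 126 of its 55681 probes, and the brightest probe stood for a gene. A gene was kept if some group had all of its arrays well above background for it, which held for 88 members and for 25139 features in all. Cox7b2 and Cox8c were too dim in all groups and were left out.

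The mice were C57BL/6 females aged 6 weeks, anaesthetised with xylazine and ketamine and injected into the tail vein. Controls received 200 µl of physiological serum, called saline here, and treated mice 1.2 µl of oleic acid per g in the same volume. Lung RNA was taken 1, 1.5, 3, 4, 18 and 24 h later and hybridised with 1 dye. Saline had 3 arrays at 1 h and 2 at each later time, and oleic acid had 3 at each time. Oleic acid 1.5 h replicate 3 and 3 h replicate 2 were left out, because their spike-in controls rose with slopes of 1.66 and 0.751 against 0.937 to 1.06 on the other 29. All groups share the anaesthesia and the injection, and no uninjected mice are among the samples analysed here. The tissue is whole lung, so fewer cells of a type and less RNA per cell cannot be told apart. All 7 markers of alveolar type 2 cells and all 7 of endothelium passed the filter, and 20 heart muscle markers did too.

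Complex I takes electrons from NADH and complex II takes them from succinate. Both pass them through ubiquinone to complex III, then through cytochrome c to complex IV, which reduces oxygen to water. Complexes I, III and IV pump protons across the inner membrane, and complex V, the ATP synthase, uses their return to make ATP. Most subunits are encoded in the nucleus, and the core of all complexes but complex II also holds subunits encoded in mitochondrial DNA. The kept members held 36 complex I genes, 4 of complex II, 8 of complex III, 16 of complex IV and 15 of complex V. The others were 4 Ndufaf assembly factors of complex I, Ndufa4 and its paralog Ndufa4l2, and 3 genes that are no subunits (Atp5s, Atp5sl and Cox4nb, which RefSeq calls Dmac2l, Dmac2 and Emc8).

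No respiratory gene passed the test between oleic acid and saline at any of the 6 times. Values are log2 signals relative to the 75th percentile of their array, differences are oleic acid minus saline, and the test was limma with Benjamini-Hochberg adjustment over all 25139 features at 0.05. At 1 h the test called 0 of 88 members and 0% of all features, and 2 members (2.27%) had an unadjusted p under 0.05 beside 4.3% of all features. At 1.5 h it called 0 members and 0% of all features, with 1 member (1.14%) before adjustment beside 1.43%. At 3 h it called 0 members and 0% of all features, with 1 member before adjustment beside 6.29%. At 4 h it called 0 members and 0.0199% of all features, with 5 members (5.68%) before adjustment beside 7.63%. At 18 h it called 0 members and 0.0199% of all features, with 0 members before adjustment beside 2.3%. At 24 h it called 0 members and 0.0159% of all features, with 8 members (9.09%) before adjustment beside 4.74%.

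The intervals were narrow for these genes. At 1 h, 86 of 88 members had a 95% interval that lay within 1 log2 unit of 0 on both sides, against 67.8% of all features. At 3 h, the time with the fewest, it was 82 members, and at 18 h it was all 88. In the mean of the 4 early times (1 to 4 h) all 88 intervals lay within 1 log2 unit, the members' differences ran from -0.26 to 0.35, and 0 members were called (0% of all features), with 3 before adjustment (3.41%, beside 7.4%). The median standard deviation of a member within groups was 0.186, against 0.316 over all features. In arrays simulated with the same spread, 7 of 10 members changed by 1 log2 unit at 24 h were called, and 1 of 10 changed by 0.5. In that run changes of 0.5, 1, 1.5 and 2 log2 units were each planted in 10 members and 40 other features. Noise was independent between genes, whereas real arrays share shifts in brightness. With 0.0159% of all features called at 24 h in the real data, a lone change may be called less often. A change of 0.5 log2 units in a single gene was mostly not detectable with these numbers of arrays.

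**Figure D1:**
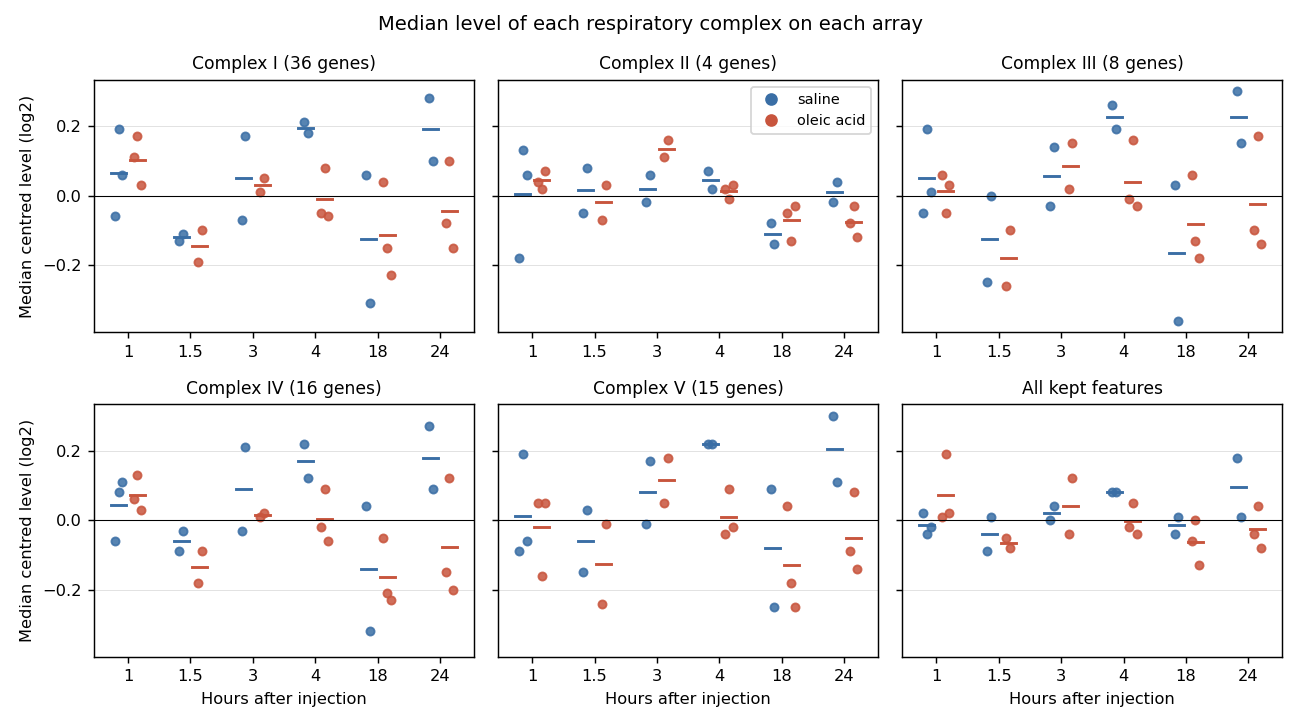
Median level of the kept genes of each complex on each of 29 arrays, after subtracting each gene's mean, by hours after injection (points, arrays; bars, group means; log2 axis). At 24 h the saline arrays lie at 0.28 and 0.1 for complex I and the oleic acid arrays at -0.08, 0.1 and -0.15.

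The median of each complex differed between arrays of the same group. After subtraction of each gene's mean, the members' median ran from -0.27 on saline 18 h replicate 2 to 0.27 on saline 24 h replicate 1, a range of 1.45-fold. The medians of complexes I, III, IV and V spanned 0.59, 0.66, 0.59 and 0.55 log2 units over the 29 arrays, and that of complex II, succinate dehydrogenase, spanned 0.34. At 4 h the members' median was 0.22 and 0.15 in saline and -0.02, 0.09 and -0.05 in oleic acid. At 24 h it was 0.27 and 0.11 in saline and -0.08, 0.09 and -0.15 in oleic acid. The groups did not overlap at these times, and they overlapped at 1, 1.5, 3 and 18 h. The median of all features did not overlap at 4 h either (0.08 and 0.08 in saline, -0.02, 0.05 and -0.04 in oleic acid). At 24 h it overlapped (0.18 and 0.01 in saline, -0.04, 0.04 and -0.08 in oleic acid).

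The direction at 4 and 24 h was shared by most members. At 4 h 66 of 88 members (75%, beside 59.8% of all features) lay below saline, with a median difference of -0.19 beside -0.08 for all features. At 24 h 77 of 88 did (87.5%, beside 64.4%), with -0.26 beside -0.12. Without saline 24 h replicate 1 the 24 h median was -0.15. By complex the 24 h medians were -0.25 for complex I, -0.11 for complex II, -0.3 for complex III, -0.29 for complex IV and -0.3 for complex V. The groups did not overlap, with oleic acid lower, for 30 members (34.1%) at 4 h beside 14.5% of all features and for 27 members (30.7%) at 24 h beside 15.7%. Oleic acid was higher without overlap for 4 members (4.55%) at 4 h beside 8.36% and for 0 members at 24 h beside 5.93%. At 18 h the members' median was 0.02, and it was -0.16 without saline 18 h replicate 2 and 0.2 without replicate 1, with 1 member lower (1.14%, beside 6.54%) and 4 higher (4.55%, beside 5.53%) without overlap. At 1 h 0 members were lower beside 1.41% and 1 was higher (1.14%) beside 3.19%. At 1.5 h 8 were lower (9.09%, beside 14%) and 3 higher (3.41%, beside 11%), and at 3 h 14 were lower (15.9%, beside 17.7%) and 20 higher (22.7%, beside 18%). All arrays of 1 h, of 4 h and of 24 h lay on 1 slide each, whereas at 18 h saline lay on slide 3 and oleic acid on slide 4, so slide and treatment cannot be told apart there. The size of the shift at 4 and 24 h depended on the scaling. Under quantile normalization the members' median was -0.05 at 4 h and -0.08 at 24 h, and in the deposited table of the authors, put through the same fit, it was -0.03 and -0.03.

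**Figure D2:**
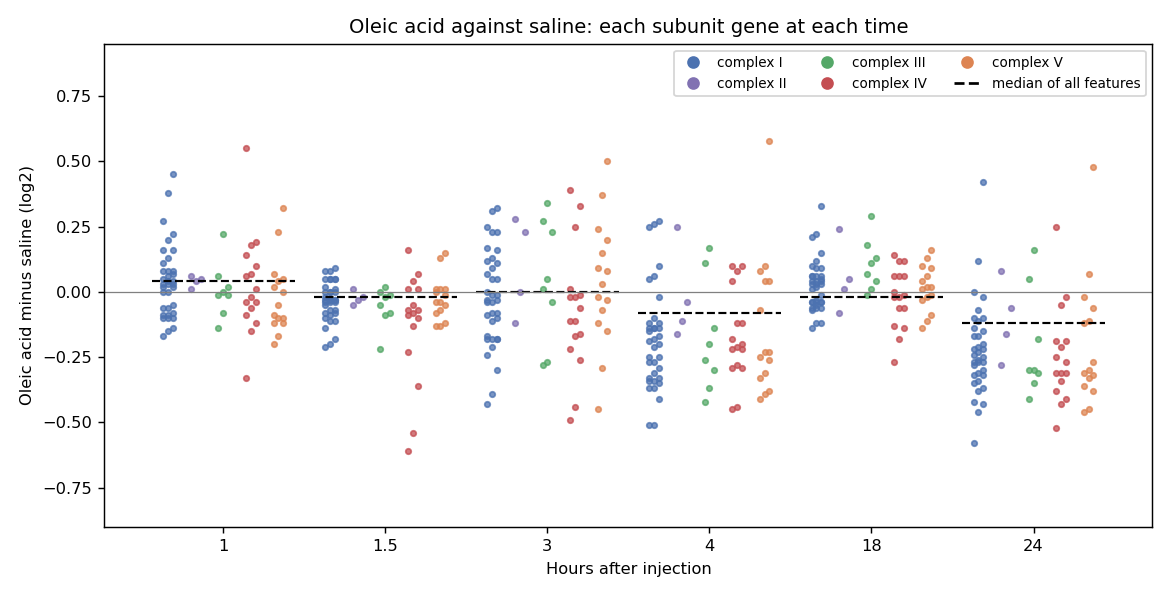
Difference of each kept subunit gene between oleic acid and saline at each time (points, 1 gene each, by complex; dashed lines, median of all kept features; log2 axis). The points of 4 and 24 h lie mostly below 0, with complex V medians of -0.23 and -0.3, and no point passed the test.

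The members' medians followed the brightness of the arrays. The 75th percentile of an array's signal, the value subtracted in the scaling, ran from 7.94 to 9.07 log2 units, and the members' median correlated with it at r = -0.757 (Spearman's rho -0.771) over 29 arrays. It was -0.74 without the 2 arrays farthest from the middle, saline 3 h replicate 2 and oleic acid 4 h replicate 2, and -0.137, -0.63, -0.895 and -0.869 within slides 1 to 4. No p is given, since the median is a score over chosen genes and shares the subtracted value with the other axis. By complex r was -0.785 for complex I, -0.72 for complex III, -0.823 for complex IV and -0.635 for complex V, but -0.253 for complex II. The median of all features correlated at -0.719. Under quantile normalization r was -0.258 for the members and -0.0875 for all features, but 0.72 for complex II. With normexp background correction the members kept r = -0.554. The treated arrays were on average brighter than saline by 0.03, 0.15, 0.45, 0.43, 0.19 and 0.42 log2 units at the 6 times in order. The members' median differences at these times were 0.02, -0.03, -0.02, -0.19, 0.02 and -0.26. That of 3 h, with 2 arrays per group, ran from -0.13 to 0.07 when 1 array was left out. The part of brightness in the difference between treatments was not tested.

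**Figure D3:**
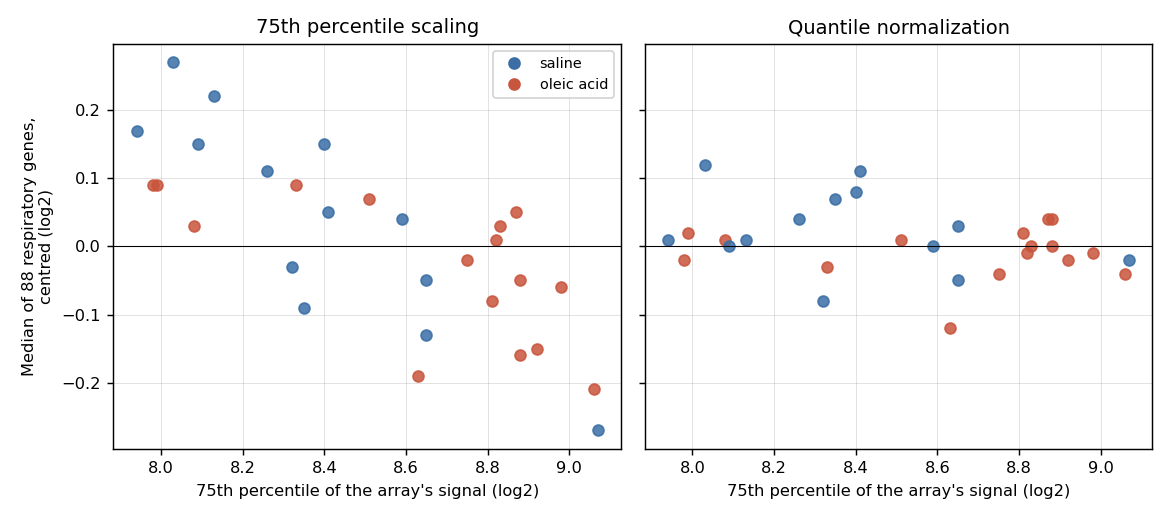
Median of the 88 respiratory genes on each array against the 75th percentile of that array's log2 signal, with the 75th percentile scaling (left) and with quantile normalization (right). Each point is 1 of 29 arrays; the downward trend on the left has r = -0.757 and the right panel has r = -0.258.

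In complex I, the NADH dehydrogenase, 13 of 36 genes were lower without overlap at 24 h, beside 15.7% of all features. It was 7 of 16 in complex IV, 2 of 8 in complex III, 2 of 15 in complex V and none in complex II at 24 h. Ndufa3, an accessory subunit, stood at 6.67 and 6.04 in saline and at 5.54, 6.17 and 5.61 in oleic acid. Its difference was -0.58 (95% interval -1.16 to 0; limma, adjusted p = 0.835), and the groups overlapped through oleic acid replicate 2. At 4 h Ndufb7, another accessory subunit, stood at 6.31 and 6.36 in saline and at 5.66, 6.31 and 5.49 in oleic acid, a difference of -0.51 (-1.03 to 0.01; adjusted p = 0.647). The arrays of oleic acid replicate 2 at 4 h and at 24 h, both among the dimmest, again stood close to saline for Ndufb7 at 6.31 and 6.38. Going the other way, Ndufa10, an accessory subunit, was 0.91 and 1.65 in saline at 24 h and 1.75, 1.53 and 1.82 in oleic acid. The groups overlapped, with a difference of 0.42. At 24 h 33 of the 36 complex I genes (91.7%, beside 64.4% of all features) lay below 0. An unadjusted p under 0.05 was found for 4 (11.1%, beside 4.74%). At 18 h 15 of 36 lay below 0 (41.7%, beside 53.1%).

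Complex II varied least. Its median within-group standard deviation was 0.141, and all 4 genes had intervals within 1 log2 unit at each of the 6 times. Sdha, the flavoprotein that oxidises succinate, was 3.18 and 3.37 in saline at 24 h and 3.39, 3.24 and 3.44 in oleic acid, a difference of 0.08. Sdhb, the iron-sulfur subunit, was 4.67 and 4.74 in saline and 4.44, 4.69 and 4.49 in oleic acid, a difference of -0.16. Both genes overlapped between treatments. The differences of the 4 genes ran from -0.28 for the membrane anchor Sdhc to that of Sdha.

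In complex III, the cytochrome bc1 complex, the members did not share 1 direction. Uqcrc1, a core subunit, had a mean below saline at each of the early times, but its groups overlapped at 1, 1.5 and 3 h. At 1 h it stood at 3.03, 3.44 and 3.25 in saline against 3.05, 3.15 and 3.09. At 1.5 h it stood at 3.31 and 3.17 against 3.24 and 2.81, and at 3 h at 3.08 and 3.66 against 3.04 and 3.16. At 4 h Uqcrc1 was apart, at 3.69 and 3.45 in saline against 3.19, 3.35 and 2.89. Its difference over the early times was -0.26 (-0.5 to -0.03; limma, adjusted p = 0.66). The other core subunit, Uqcrc2, stood at 3.81 and 3.6 in saline at 4 h and at 4, 3.67 and 3.96 in oleic acid, and its early difference was 0.16 (0 to 0.32; adjusted p = 0.66). Uqcrfs1, the Rieske iron-sulfur protein, had 0.34 at 3 h and 0.16 at 24 h, and Uqcrh, the hinge subunit, had -0.28 and -0.41. None of these passed the test.

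Complex V gave 1 gene that was above 0 at all 6 times, Atp5j, which encodes coupling factor 6 of the stalk. At 1.5 h its means hardly differed, at 3.76 in oleic acid and 3.75 in saline. It stood at 3.34 and 3.05 in saline at 4 h and at 3.84, 3.5 and 3.99 in oleic acid. At 24 h it was 2.78 and 3.66 in saline and 3.8, 3.49 and 3.82 in oleic acid. The groups were apart at 4 h and overlapped at 24 h. Its difference was 0.58 at 4 h (0.04 to 1.12; limma, adjusted p = 0.647) and 0.35 over the early times (0.08 to 0.63; adjusted p = 0.66). Atp5j was higher on brighter arrays (r = 0.674, rho 0.611; r = 0.657 without the 2 farthest arrays), and within slides r was between 0.621 and 0.806. No p is given, since the level has the brightness value subtracted. It was 1 of 22 members with a correlation above 0, against 66 below. Atp5e and Atp5k, small subunits of the stalk and of the membrane part, had differences of -0.45 and -0.46 at 24 h. Atp5b, the catalytic beta subunit, had 0.1 at 4 h. Besides Atp5j no member kept 1 sign above 0 at all times, and Atp5g1, Cox5a, Cox6a2, Cox7a2 and Ndufaf1 were below 0 at all 6. With 88 members and differences that share slides, these counts were not tested. The share of all features with 1 sign at all times was not computed.

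Complex IV, cytochrome c oxidase, has subunits in tissue-specific pairs. Cox6a2, Cox7a1 and Cox8b are the forms of heart and skeletal muscle, Cox6a1, Cox7a2 and Cox8a the widely expressed forms, and Cox4i2 is a form known from lung beside the common Cox4i1. Cox6a2 had the smallest p of all members at 24 h. It stood at 5.05 and 5.03 in saline and at 4.34, 4.93 and 4.31 in oleic acid, without overlap. Its difference was -0.52 (-0.92 to -0.12), which did not pass (limma, adjusted p = 0.835). At 18 h it was 4.7 and 4.45 in saline and 4.19, 4.49 and 4.24 in oleic acid, which overlapped, and the mean of both late times was -0.39 (-0.68 to -0.11; adjusted p = 0.943; 0 members called beside 0.00796% of all features, and 1 member, Cox6a2, before adjustment beside 3.04%). The widely expressed Cox6a1 had -0.31 at 24 h (-0.73 to 0.11), so the intervals of the pair overlap widely. Cox6a2 was lower on brighter arrays (r = -0.715, rho -0.757; r = -0.719 without the 2 farthest arrays; -0.676, -0.418, -0.659 and -0.942 within slides), again with no p for the same reason. With the members' median subtracted from its level r was -0.372.

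Cox7a1 and Cox8b were highest on 2 arrays, 1 of each treatment. Over the 13 saline arrays Cox7a1 ran from 2.99 (median 3.44) to 4.09 on saline 1.5 h replicate 2, and over the 16 oleic acid arrays from 2.72 (median 3.19) to 3.86 on oleic acid 24 h replicate 2. Cox8b ran from 2.03 (median 2.43) to 3.15 in saline and from 1.91 (median 2.29) to 2.73 in oleic acid, with its highest values on the same arrays. These are also the arrays where the mean of the heart muscle markers was highest, though not every marker was. Nppa, the atrial natriuretic peptide, stood at 7.36 and 6.36 there against medians of 3.53 in saline and 3.47 in oleic acid. The heart myosin gene Myh6 stood at 7.42 and 6.89 against 6.31 and 6.34. Among markers that did not follow, Myh7 stood at 2.41 and 2.94 on these arrays and at 3.11 on saline 24 h replicate 2. Actc1 was 5.17 on oleic acid 24 h replicate 2, below 5.57 on oleic acid 1.5 h replicate 2. The mean of the 20 heart markers, each centred, was 1.41 and 0.74 on these arrays and lay between -0.49 and 0.29 on the other 27.

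The muscle forms were compared with the heart markers over the 29 arrays. Gene and marker levels have the same array percentile subtracted, which by itself adds to r, and the p values do not account for it. The permutations also shuffled arrays without regard to groups or slides, and the relations were chosen with earlier results known, so the p values are a description. For Cox7a1 r was 0.679 (permutation p = 2e-05, 0.00013 after adjustment over 9 relations with marker lists; rho 0.539, p = 0.0027), and 0.437 without the 2 arrays named. For Cox6a2 r was 0.534 (permutation p = 0.0016, adjusted 0.0036; rho 0.458, p = 0.013), and 0.377 without them. For Cox8b r was 0.582 (permutation p = 0.0025, adjusted 0.0038; rho 0.3, p = 0.11), but 0.0965 without them, so that relation rests on those arrays. With the members' median subtracted from the gene, r was 0.81 for Cox7a1, 0.725 for Cox6a2 and 0.656 for Cox8b. Within slides 1 to 4 r for Cox7a1 was 0.426, 0.93, 0.00941 and 0.805, for Cox6a2 it was 0.343, 0.704, 0.179 and 0.681, and for Cox8b it was -0.87, 0.803, 0.0421 and 0.618. The widely expressed Cox6a1, Cox7a2 and Cox8a had r of -0.315, -0.275 and -0.0995 (permutation p = 0.095, 0.15 and 0.6) and rho of -0.285, -0.394 and -0.0138 (permutation p = 0.14, 0.035 and 0.94; 0.053 for Cox7a2 after adjustment). Without the 2 arrays r was -0.3, -0.486 and 0.0396. For Cox7a2 r within slides was -0.857, -0.00349, -0.487 and 0.0899. The 1.5 h differences of Cox7a1 and Cox8b, -0.54 (-1.13 to 0.06) and -0.61 (-1.22 to -0.01), include saline replicate 2. All 20 heart markers lay below 0 in that comparison, beside 54.5% of all features. The part of heart tissue in these differences was not tested. Cox8b also went with brown fat markers (r = 0.589, permutation p = 0.00073, adjusted 0.0022; rho 0.457, p = 0.014; r = 0.531 without the 2 farthest arrays; 0.527, 0.726, -0.0317 and 0.714 within slides). Ucp1, the uncoupling protein of brown fat, was highest at 2.17 on oleic acid 18 h replicate 3, where Cox8b was 2.7, and at 1.74 on saline 1.5 h replicate 2.

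Cox4i2 stood at 3.66 and 3.3 in saline at 4 h and at 3.02, 3.39 and 2.68 in oleic acid. At 24 h it was 3.57 and 3.48 in saline and 2.97, 3.31 and 3 in oleic acid. The groups overlapped at 4 h and not at 24 h, with differences of -0.45 (-0.96 to 0.07; limma, adjusted p = 0.651) and -0.43 (-0.95 to 0.09; adjusted p = 0.835). Cox4i1 had -0.21 and -0.19 at these times. Ndufa4l2, the paralog of Ndufa4, which is counted with complex IV today, had -0.29 at both times (-0.65 to 0.06 and -0.65 to 0.07) and Ndufa4 itself had 0.09 and -0.27. Both Cox4i2 and Ndufa4l2 were compared with 12 markers of smooth muscle and pericytes, the contractile cells around vessels and airways. Here too gene and markers have the same percentile subtracted, and Cox4i2 and Ndufa4l2 had r of -0.733 and -0.628 with it. The permutations ignored groups and slides, and the relations were chosen with earlier results known. The p values account for none of this, so they are a description. For Cox4i2 r was 0.665 (permutation p = 3e-05, adjusted 0.00013; rho 0.57, p = 0.0015; 0.613 without the 2 farthest arrays; 0.444, 0.926, 0.762 and 0.507 within slides). For Ndufa4l2 r was 0.538 (permutation p = 0.0025, adjusted 0.0038; rho 0.431, p = 0.019; 0.454 without the 2 farthest; 0.0797, 0.521, 0.721 and 0.468 within slides), and r after subtracting the members' median was 0.584 for Cox4i2 and 0.221 for Ndufa4l2. Of these 12 markers 9 lay below 0 at 4 h, beside 59.8% of all features, and 9 at 24 h, beside 64.4%. The pericyte marker Rgs5 went the other way, without overlap at both times. At 4 h Rgs5 stood at -3.36 and -3.99 in saline and at -2.17, -3.02 and -1.63 in oleic acid. At 24 h it stood at -3.68 and -3.17 in saline and at -2.63, -1.57 and -2.25 in oleic acid. The 12 markers had medians of -0.31 and -0.34, with 0 called. Their part in the differences of Cox4i2 and Ndufa4l2 was not tested.

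**Figure D4:**
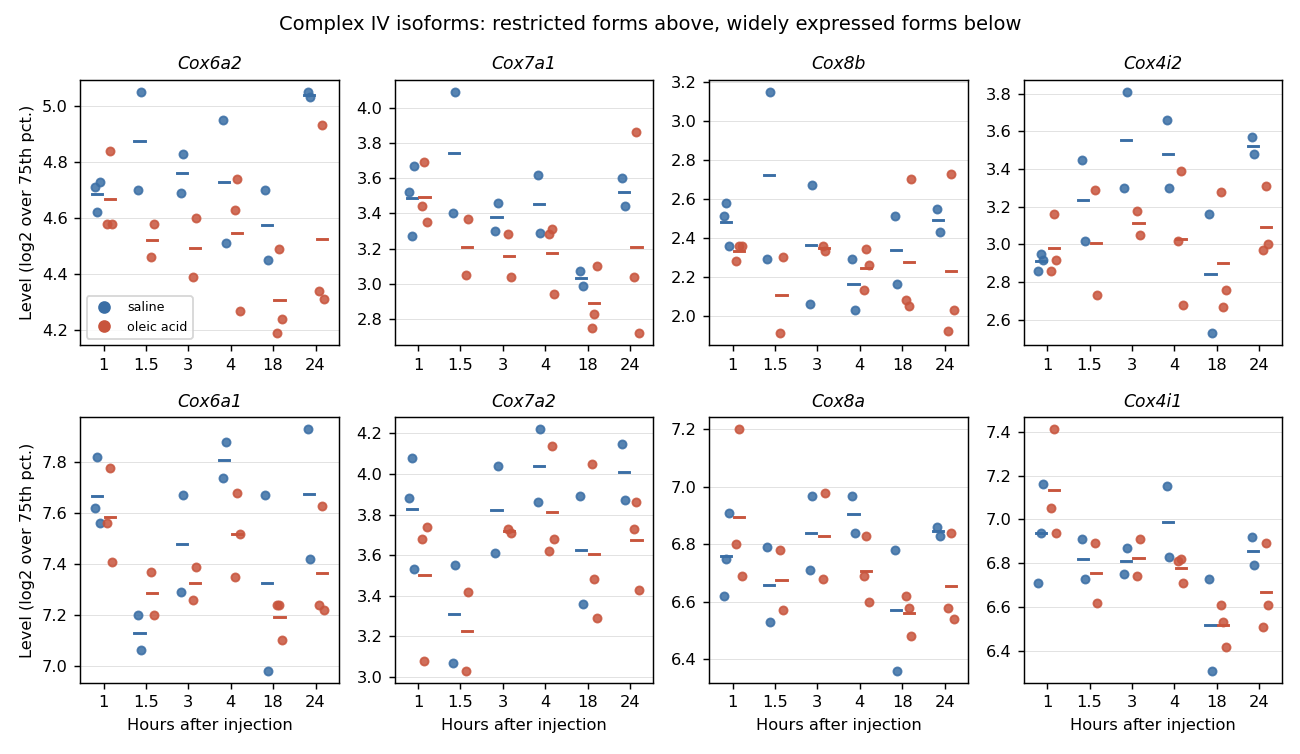
Levels of 8 complex IV genes on each array by hours after injection (points, arrays; bars, group means; log2 signal over the array's 75th percentile, with an axis of its own for each gene). Cox7a1 and Cox8b are highest at saline 1.5 h and oleic acid 24 h, with 4.09 and 3.86 for Cox7a1, and Cox6a2 at 24 h lies at 5.05 and 5.03 in saline.

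Within saline, 2 members were lower at 18 h than at 4 h, which was the only comparison with any member called. The arrays of both groups lay on slide 3. Atp5g2, which encodes a copy of the membrane ring subunit c of ATP synthase, was 6.7 and 6.67 at 4 h and 6.31 and 5.71 at 18 h. It was lower by -0.68 (-1.09 to -0.26; limma, adjusted p = 0.0474). Ndufa7, an accessory subunit of complex I, was 5.91 and 5.95 at 4 h and 5.57 and 5.27 at 18 h, a difference of -0.51 (-0.82 to -0.2; adjusted p = 0.0487). The 2 calls are 2.27% of the members, beside 6.33% of all features called in either direction and 4.59% called lower. Before adjustment 28 members (31.8%) had a p under 0.05, beside 23.3% of all features. Cox7a2l, a supercomplex factor, and Cox5b had -0.57 and -0.59 with adjusted p of 0.0523 and 0.0621. Over all members the median was -0.29 beside -0.06 for all features, and 71 of 88 (80.7%, beside 54%) lay below 0.

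These calls turned on the scaling and on single arrays. With quantile normalization, with median centring and in the authors' deposited table no member was called, and the members' median was 0.05, -0.75 and 0.05. In the authors' deposited table, put through the same fit, Ndufa7 turned to 0.03. Without saline 18 h replicate 2, where 77.53% of spots were well above background, 0 members were called and the median was -0.14. Without saline 18 h replicate 1 there were 5 calls (5.62% of members, beside 2.79% of all features) and the median was -0.46. Leaving out each of the 29 arrays in turn, arrays of other groups included, left 0 calls in 19 cases, and both adjusted p values lie close to the threshold. The saline 18 h arrays had 75th percentiles of 8.41 and 9.07, and the saline 4 h arrays 8.13 and 8.09. The part of brightness in this comparison was not tested.

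The other comparisons across time called 0 members with limma. Late against early times in saline had 0 members beside 2.69% of all features, and 3 members before adjustment beside 14.9%. In oleic acid it had 0 beside 5.34%, with 9 (10.2%) before adjustment beside 19.8%. Cox4i1, the common form of the complex IV regulatory subunit, led there with -0.28 (-0.49 to -0.07; adjusted p = 0.113). Its early and late values overlapped, from 6.62 to 7.41 early and from 6.42 to 6.89 late. All late oleic acid arrays lay on slide 4 and all early ones on slides 1 to 3, so time and slide cannot be told apart there. In saline the late arrays lay on slides 3 and 4 and the early ones on slides 1 to 3. The tests of any change with time also compare arrays of different slides. Oleic acid 24 h against 18 h, both on slide 4, had 0 members beside 0.0119% of all features and 0 before adjustment beside 2.24%. The test of any change with time called 0 members in saline beside 4.64%, with 10 (11.4%) before adjustment beside 23.7%. In oleic acid it called 0 beside 4.67%, with 4 (4.55%) before adjustment beside 19.9%. The test of a treatment effect that differs between times called 0 members beside 0.00796%, with 0 before adjustment beside 2.05%. The late minus early effect of oleic acid had 0 members beside 0%, and 0 before adjustment beside 1.27%.

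Other mitochondrial genes, outside the name rule, are given at 4 and 24 h for comparison. The 12 detected subunits encoded in mitochondrial DNA had a median of 0.34 at 4 h, with 9 above 0 (75%, beside 40.2% of all features). At 24 h it was 0.15, with 7 above 0 (58.3%, beside 35.6%). ND1, a core complex I subunit, had 1.06 at 4 h (0.27 to 1.85; limma, adjusted p = 0.647) and CYTB, the catalytic subunit of complex III, 0.52 (0.09 to 0.96; adjusted p = 0.647). The lowest of the list was ND6, another core complex I subunit, at 0.36 and 1.4 in saline and -1.06, 0.71 and -1.12 in oleic acid at 4 h, which overlapped. Its differences were -1.37 at 4 h and -1.05 at 24 h. None of the 12 passed in any of the 6 treatment comparisons, and 4 (33.3%, beside 7.63% of all features) had an unadjusted p under 0.05 at 4 h. The treated arrays were on average brighter than saline by 0.43 log2 units at 4 h and 0.42 at 24 h. The part of brightness in the differences of these 12 genes was not tested. The 75 mitochondrial ribosomal protein genes had medians of -0.08 and -0.07 at these times, and the 16 genes of the citric acid cycle and pyruvate dehydrogenase 0.11 and 0.02, with 0 called in each list. The 22 assembly factors outside the name rule had 0.01 and -0.02, with 0 called.

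Of 12 detected regulators of respiratory genes 0 were called between treatments. The coactivator Ppargc1a had 0.06 at 4 h and -0.15 at 24 h, and the receptor Esrra -0.09 and -0.11. The transcription factors Nrf1 and Gabpa had -0.22 and 0.18 at 4 h and -0.21 and 0.36 at 24 h, and Tfam, which packs mitochondrial DNA, 0.4 and 0.28. Tfb1m, which methylates mitochondrial ribosomal RNA, passed in 3 comparisons across time. It was higher by 0.99 in saline at 18 h against 4 h (adjusted p = 0.0402), by 0.81 late against early in saline (adjusted p = 0.0138) and by 0.53 in oleic acid (adjusted p = 0.0372). In these comparisons, in the same order, 6.33%, 2.69% and 5.34% of all features were called. Late and early arrays lay on different slides in oleic acid and partly so in saline. In the first comparison the calls of respiratory genes turned on the scaling. The lowest Tfb1m values were -1.26 in saline (replicate 2 of 3 h) and -1.53 in oleic acid (replicate 2 of 4 h). Both lay on the dimmest arrays, which were early. The part of brightness and slide in the Tfb1m differences was not tested. Ppargc1a had -0.82 in saline at 18 h against 4 h (adjusted p = 0.0512).

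The base composition of a probe went with how its gene varied between arrays. Every probe has 60 bases, and the members' probes held from 28.33% to 55% G and C. On each array the median of features whose probe had at least 50% G and C was set against that of features with at most 40%. This difference was highest at 0.66 on oleic acid 1 h replicate 2 and lowest at -0.37 on oleic acid 18 h replicate 1. All 20 members with probes of at least 50% correlated with it above 0, against 9 of 31 with probes of at most 40%, and over the 88 members probe content and this correlation had r = 0.714. The members are not independent, so this is a description. After oleic acid 1 h replicate 2 the next highest difference was 0.22, on saline 24 h replicate 1. The correlations were not computed without oleic acid 1 h replicate 2. The 2 kept probes of Cox7c, a small complex IV subunit, differ in composition and had r = -0.599 over 29 arrays, and the one with more G and C correlated with the difference at 0.253. The other kept probes with r below 0 were of Sdhc (25% and 55%, r = -0.0918) and Uqcr10 (55% and 43.33%, r = -0.0081). At near-equal composition probes went together for Uqcr10 (45% and 43.33%, r = 0.959) and Atp5f1 (35% for both, r = 0.924). They did not for the assembly factor Ndufaf4 (46.67% and 45%, r = 0.00624). Composition was not tested as the source. The following stretches are the opening 30 bases of probes that differ in composition, with G and C in capitals and the share of the whole probe beside each.
Cox7c, 55% G and C: tGtaGaaaGGaGaGttaGGtGGtaCGGCCa
Cox7c, 25% G and C: aaaGtttaaGaGatGatCtGaaaattGGat
Ndufa11, 53.33% G and C: GGCCGaGCaaGCCCaGCtaGGtatGGCGat
Ndufa8, 28.33% G and C: atCaCaGaCattaaCaaaaaaGttaattta
By the files, in mm9, the Cox7c probes lie on the minus strand at chr13:86186301-86186360 and chr13:86184447-86184506. Ndufa11 has its probe on the plus strand at chr17:56857241-56857300 and Ndufa8 on the minus strand at chr2:35891871-35891930. No mm9 annotation was used here, so exon and UTR positions are not given.

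At 1 h the GC-rich Cox7c probe stood at 3.32, 3.53 and 4.41 in saline and at 4.24, 4.49 and 4.19 in oleic acid. The AT-rich probe stood at 3.21, 3.05 and 2.73 in saline and at 2.77, 2.12 and 3.07 in oleic acid. The first gave 0.55 (0.07 to 1.03; limma, adjusted p = 1), the smallest p of all members at 1 h, and the second -0.34, so the sign of the 1 h difference of Cox7c depends on the probe. Ndufa11, an accessory complex I subunit with the next smallest p at 1 h, had 0.38 (0.02 to 0.73; adjusted p = 1) from a probe of 53.33% G and C. Over the 26 members with more than 1 probe, 35 further probes were kept. Of these 17 correlated with the brightest probe above 0.8, 10 between 0.3 and 0.8, and 8 below 0.3, among them 3 below 0.

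**Figure D5:**
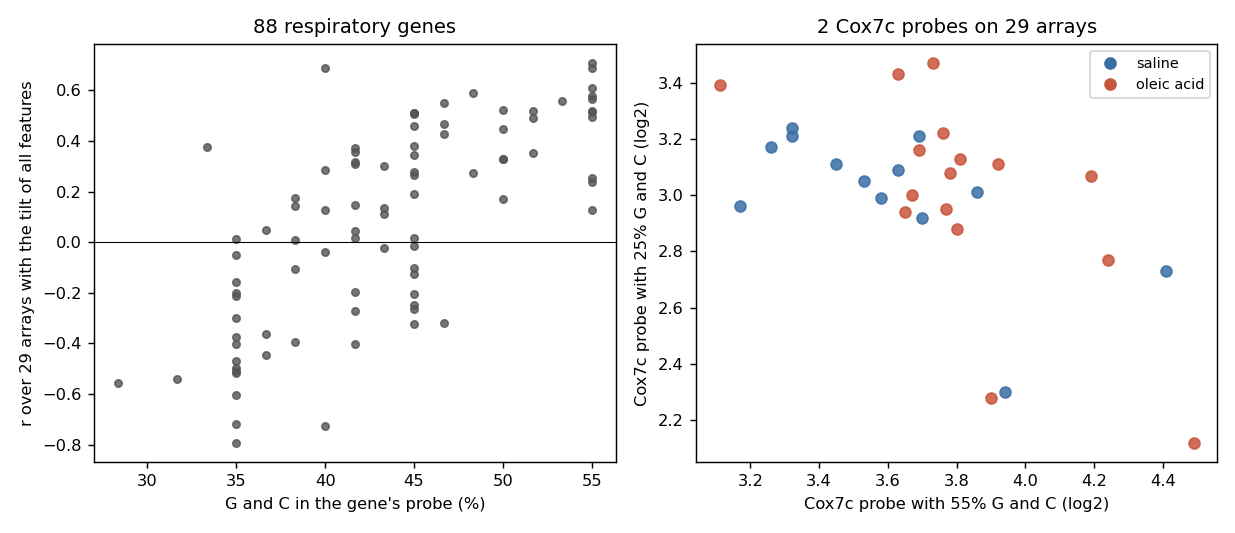
Left, for each of 88 members, the G and C content of its probe (%) against its correlation over 29 arrays with the difference between GC-rich and GC-poor features; r over members is 0.714. Right, log2 levels of the 2 kept Cox7c probes on each array, with r = -0.599.

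Promoters of the subunit genes were searched for 7 short motifs, none of which was present in most of them. RefSeq promoters of 300 bases (250 before and 50 after the start, GRCm38.p6) were found for 67 of 81 subunit genes and were set against those of 27025 genes, each searched on both strands. The palindrome bound by NRF-1, spelled in capitals in the windows at the end of the paragraph, was present in 5 (7.46%, beside 0.977% of all promoters). A looser form that allows any middle pair of bases, and so contains it, was present in 18 (26.9%, beside 6.43%). The ETS core CCGGAAG, bound by factors such as GABPA, was present in 15 (22.4%, beside 9.12%) and the ERR motif TCAAGGTCA in 2 (2.99%, beside 0.407%). CCAAT was present in 29 (43.3%, beside 37.9%), the GC box GGGCGG in 28 (41.8%, beside 35.9%) and TATAAA in 7 (10.4%, beside 14.2%). By complex the looser form was in 9 of 32 promoters of complex I, 2 of 3 of complex II, 1 of 5 of complex III, 1 of 13 of complex IV and 5 of 14 of complex V. A match is a description of letters, not of binding. The windows below, upstream of the gene's start and read on the gene's strand, show the palindrome in capitals in genes of 3 complexes, among them Atp5g2.
Atp5g2: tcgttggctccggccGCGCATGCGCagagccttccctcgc
Atp5k: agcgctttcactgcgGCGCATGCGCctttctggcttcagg
Cox6a1: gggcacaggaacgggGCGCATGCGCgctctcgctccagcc
Ndufa11: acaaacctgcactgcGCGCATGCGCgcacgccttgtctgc
In GRCm38.p6 they lie at chr15:102671065-102671104, chr5:108434425-108434464 and chr5:115349096-115349135 on the minus strand and at chr17:56717687-56717726 on the plus strand. The palindrome begins 42, 50, 162 and 60 bases before the start, in the same order.

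Members varied together in pairs to a moderate degree. Over 29 arrays the median correlation of 3828 pairs of members was 0.31, and within complexes it was 0.433 for I, 0.0064 for II, 0.323 for III, 0.332 for IV and 0.387 for V. The points share array brightness and probe composition. The highest pair was Ndufb10 with Ndufs6, both of complex I, at 0.948, and the lowest Atp5k with Ndufa10 at -0.872.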

How the data were processed

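Lung RNA was measured on 31 one-colour Agilent arrays, of which 29 were used, 2 to 3 per group. The deposited scanner files came from version 10.5.1.1 of Feature Extraction, per the submitters' processing notes, and hold processed spot intensities, background-corrected per the file headers. Log2 of this intensity minus the array's 75th percentile was averaged per probe without outlier spots. limma 3.58.1 (R 4.3.3) fitted 12 group means, with eBayes and Benjamini-Hochberg adjustment at 0.05. The authors' deposited table of log2 values, with column medians of 6.189 to 6.231, was an alternative. The fit was tested on simulated data. The labels do not say whether replicates are separate mice, so p-values measure the spread between arrays, whose number limits the precision. Members, lists and relations were chosen with earlier results of these data known. By the rule for named genes any member may be named. Values per array go to called members, to the extremes of each complex and to tissue variants, and other lists give their smallest p values and 5 fixed regulators.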

Additional observations from a re-analysis of the deposited data

Results flagged for a closer look

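Both arrays left out for their spike-in slopes showed respiratory genes outside the range of -0.27 to 0.27 that the other 29 arrays spanned. On oleic acid 1.5 h replicate 3 the members' median, centred on the means of the other 29 arrays, was 1.4, with 80 members measured and -0.86 for all features. On oleic acid 3 h replicate 2 it was -2.91, with 88 members measured and -0.52 for all features. The medians of complexes I to V were 1.23, 2.08, 1.8, 0.96 and 1.65 on the first array and -2.98, -2.9, -3.07, -3.03 and -2.93 on the second. No group had more than 3 arrays in use, so no array was tested against its group.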

How the results depend on the processing

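Saline 18 h against 4 h had 2 members called. It had 0 with all 31 arrays, with array weights, in the deposited table, with median centring, without a filter on dim probes, with quantile normalization, with slide as a fixed term, with the replicate block, when the arrays above 70% of well measured spots were dropped and at an adjusted p under 0.01. It had 1 with normexp background correction (offset 50), Ndufb7, and 1 with outlier spots kept, Atp5g2, and 4 with trend and robust in eBayes and with the filter on every array. Leaving out 1 array at a time gave 0 to 5, with 0 in 19 of 29 cases. Array weights called 12 members for any time in oleic acid (13.6%, beside 26.5% of all features), 4 for oleic acid late against early (4.55%, beside 11.9%) and 1 at 1 h (1.14%, beside 2.51%). Normexp and slide as a random block each called 1 for oleic acid late against early. Leaving out 1 array gave 0 to 1 for oleic acid late against early, saline late against early, any time in saline and oleic acid against saline at 18 h, the last of these when saline 18 h replicate 1 was dropped. The other comparisons between treatments stayed at 0 under each alternative run. Ndufa7 turned to 0.03 in the deposited table and Cox4i1 to 0.23 with all 31 arrays. The range of the members' median over arrays, 0.54, was 0.25 in the deposited table, 1.6 with median centring, 0.41 with normexp and 0.24 with quantile normalization. Replicate numbers were not taken to pair arrays. Deviations from group means correlated from -0.767 to 0.615 between same-numbered arrays of the 2 treatments, with 7 of 12 pairs above 0.1. In a group of 2 arrays these deviations mirror each other, so the pairs are not independent and the values cannot exclude pairing. The causes were not tested. Slide as a fixed term could not be fitted for comparisons that join slide 4 to the others.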
